A study of Mus musculus with 384 samples.

Results

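The transcripts of 6 mRNA decay regulators were followed through 4 h of innate immune stimulation in mouse macrophages: Zfp36, Zfp36l1, Zfp36l2, Zc3h12a, Zc3h12c and Rc3h1. They were taken by gene symbol, and all 6 have a row among the 23481 genes of the deposited count table and passed the filter on low counts. Bone marrow of 13-week-old male C57BL/6 mice was the source of the macrophages, and the mice were either wild type (WT) or Myd88 knockout (KO). Cells of both genotypes were grown in 30% serum with 20% CMG, carried a pool of pathway reporter viruses added on day 4, and were replated on day 9. Each genotype filled 2 plates of 96 wells, and each well of a plate received 1 of 12 ligands and was lysed at 0, 0.5, 1, 1.5, 2, 2.5, 3 or 4 h. The labels name the ligands Pam3Cys, which is a lipopeptide made by synthesis, R848, an agonist of the endosomal receptor for single-stranded RNA, CpG, which is DNA like that of bacteria, LPS, the lipopolysaccharide of bacterial outer membranes, and Zymosan, prepared from the walls of yeast. Poly(I:C) mimics double-stranded RNA, MDP was given alone and as MDP/LPS, and FLA, SeV, TDB and HT-DNA are not spelled out. Myd88 is the adaptor through which most Toll-like receptors signal, while the receptors for LPS and for double-stranded RNA can also signal through another adaptor, TRIF.

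Cells keep inflammatory transcripts short-lived by destroying them. Zfp36 (tristetraprolin) and its relatives Zfp36l1 and Zfp36l2 are zinc finger proteins that bind AU-rich elements in 3′ untranslated regions (UTRs) and recruit the CCR4-NOT deadenylase, which removes the poly(A) tail. Zc3h12a (regnase-1) is an endonuclease that cuts stem-loop structures in the 3′ UTRs of cytokine mRNAs, and Zc3h12c (regnase-3) belongs to the same nuclease family. Rc3h1 (roquin-1) is a RING and zinc finger protein that recognises similar stem-loops and recruits deadenylases. In macrophages Zfp36 is known as an immediate early gene of Toll-like receptor signalling that limits Tnf, and Zc3h12a as a brake on transcripts such as Il6.

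Wells held 71720 to 767167 counts, with a median of 342561, so for each ligand a plate's wells were added up within 3 time classes. Early stands for 0.5 and 1 h, middle for 1.5 and 2 h, and late for 2.5, 3 and 4 h. Each plate's 12 wells at 0 h gave 1 sum, whatever their ligand label. Sums held 198344 to 4901235 counts. Levels are given as CPM, counts per 1000000 counts of a sum or well, and since each value counts 3′ tags, levels are compared within a gene and not between genes. The edgeR quasi-likelihood test over 10562 genes gave log2 changes with their standard errors (SE), and a change was called where the Benjamini-Hochberg adjusted p was under 0.05. Myd88 itself was at 45.95 and 47.67 CPM over all wells of the WT plates and at 15.07 and 18.23 CPM in the KO plates. These are 3′ tags, the deleted part of the gene is not given in the sources used here, and so this does not check the deletion itself. All 10 macrophage markers had counts, at a summed 5344 to 8248 CPM over all sums, while T cell, NK cell and stromal markers each summed to at most 17.02 CPM, with Cd3g, Ncr1 and Lum among them at 0 at 0 h in both genotypes. Neutrophil and granulocyte precursor markers summed to 33.77 to 277.6 CPM. The labels do not say whether plates came from separate mice, so p-values measure only the spread between plates, and genotype cannot be told apart from plate. The fit pools this spread over all groups and treats the sums of 1 plate as independent, although each genotype had 2 plates.

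Because Zfp36 proteins act on AU-rich elements, the members' own 3′ UTRs are shown first. The nonamer TTATTTATT, the core of the binding element of this family, was searched on the sense strand of the longest annotated 3′ UTR of each gene in the GENCODE M21 annotation of mm10. It occurred in the 3′ UTRs of 4 of the 6 genes, once in each, against 7.7% of 21020 genes with a 3′ UTR. Each site is printed 5′ to 3′ with the nonamer in capitals.
Zfp36, chr7:28376951-28376979, minus strand: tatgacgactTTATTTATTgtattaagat
Zfp36l1, chr12:80108167-80108195, minus strand: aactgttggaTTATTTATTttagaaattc
Zfp36l2, chr17:84184914-84184942, minus strand: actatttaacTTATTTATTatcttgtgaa
Rc3h1, chr1:160970043-160970071, plus strand: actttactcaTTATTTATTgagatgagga
The 3 members of the Zfp36 family all carried the nonamer, in UTRs of 774, 1835 and 1822 bases, where 4.18%, 10.2% and 10% of UTRs of like length (0.8 to 1.25 times) did. In the 7181-base UTR of Rc3h1 the match is less particular, since 28.2% of UTRs of like length hold it. The letters do not occur in the 856-base UTR of Zc3h12a or the 4062-base UTR of Zc3h12c, the regnase genes. A match describes the letters only, and binding was not measured.

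The 6 genes lie on 6 chromosomes of mm10: Zfp36 at chr7:28376784-28380253, Zfp36l1 at chr12:80107754-80113013, Zfp36l2 at chr17:84183931-84187947, Zc3h12a at chr4:125118423-125127840, Zc3h12c at chr9:52111344-52168572 and Rc3h1 at chr1:160906418-160974978. Rc3h1 lies on the plus strand and the other 5 on the minus strand. Zfp36 and Zfp36l1 were the members with a called early increase in WT, so the 150 bases before the start site of each are shown, from the RefSeq promoter table of GRCm38.p6, in which 5 of the 6 genes matched by symbol (all but Zfp36l2). The CArG box, the kappaB site, the AP-1 element TGANTCA and the CRE TGACGTCA were searched on both strands. Capitals mark the matches.
Zfp36, chr7:28379229-28379378, minus strand: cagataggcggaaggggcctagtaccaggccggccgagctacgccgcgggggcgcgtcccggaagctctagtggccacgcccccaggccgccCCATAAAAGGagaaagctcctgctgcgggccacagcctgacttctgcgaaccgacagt
Zfp36l1, chr12:80113014-80113163, minus strand: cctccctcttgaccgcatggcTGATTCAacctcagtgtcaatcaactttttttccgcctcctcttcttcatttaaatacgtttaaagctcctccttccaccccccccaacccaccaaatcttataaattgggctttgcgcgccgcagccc
In Zfp36 the match is a CArG box, CCATAAAAGG, 58 bases before the start site. The CArG box is the element bound by serum response factor in immediate early genes, and 1.63% of 32851 promoter windows of 300 bases hold 1. The match in Zfp36l1 is an AP-1 element (TGANTCA), 129 bases before the start site, and 7.81% of windows hold 1. Elsewhere in the 300-base windows, Rc3h1 holds an AP-1 element, TGACTCA, 133 bases before its start site, and Zc3h12c a kappaB site 236 bases before its own, a motif that 8.46% of windows hold. None of the 4 motifs occurs in the window of Zc3h12a. Factor binding was not measured.

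Across the 72 combinations of a member and a ligand, 9 were called higher than 0 h in early WT wells, where 0.275% of all gene-ligand pairs were called higher. None was called lower by edgeR (0.00237% of all pairs) or by DESeq2, and 1 was lower at an unadjusted p under 0.05. In middle WT wells 15 were higher (0.806% of all pairs) and 6 lower (0.133%). Late WT wells had 13 higher (2.09% of all pairs) and 11 lower (0.688%). In early KO wells 5 were higher (0.164% of all pairs) and 0 lower by edgeR (0.0197%) or DESeq2, with 1 lower at an unadjusted p under 0.05. The middle KO wells had 2 higher (0.6% of all pairs) and 2 lower (0.21%), and the late KO wells 3 higher (1.58%) and 4 lower (0.593%). In the heat map of log2 changes, Zfp36 was called higher in WT with 8 ligands early, 4 in the middle wells and 6 late. Zc3h12a was called higher in the middle and late WT wells only, and Zfp36l2 lower from the middle wells on. Calls do not date the start of a change. Zc3h12a already had a median early WT change of 1.62, with 6 ligands higher at an unadjusted p under 0.05 and none called. Rc3h1 had no called change from 0 h. In these bulk wells, fewer cells of a type and less RNA per cell cannot be told apart.

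**Figure D1:**
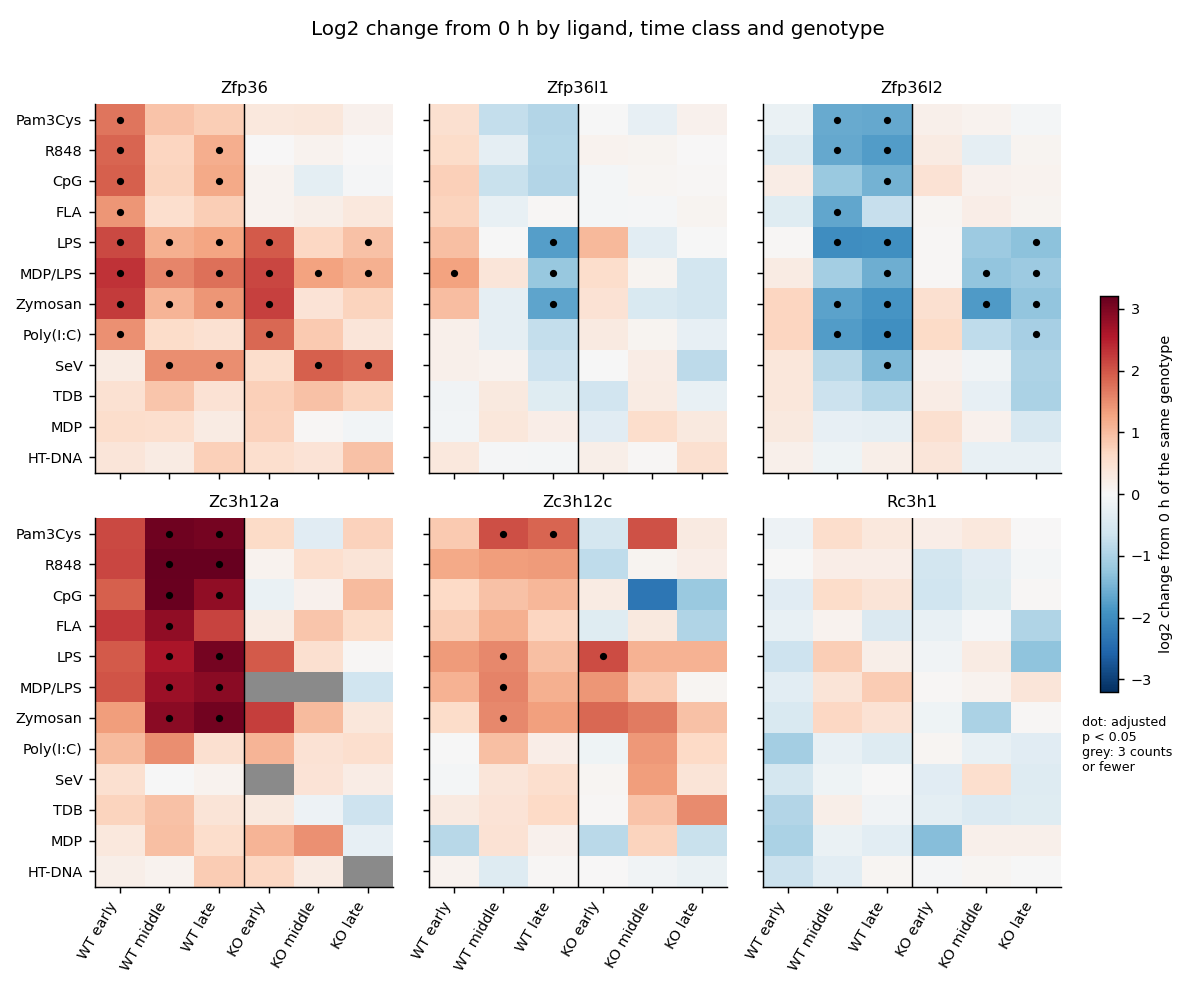
Fitted log2 change from 0 h of the own genotype in 1 panel for each of the 6 genes, with the 12 ligands in rows and the time classes of WT and then KO in columns, a dot for each called change and grey for groups with 3 or fewer counts. In WT, Zfp36 was called higher early for 8 ligands, Zc3h12a higher late for 6 and Zfp36l2 lower late for 8, against 4, 0 and 4 in KO (a difference between genotypes in these counts was not tested).

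Zfp36 stood at 140.0 and 161.9 CPM in the 0 h wells of WT plates 1 and 2 and at 103.8 and 128.2 CPM in those of the KO plates. The genotypes did not overlap there, but the difference of -0.41 (SE 0.27) was not called (edgeR adjusted p = 1.0). Early after LPS it stood at 683.3 and 521.8 CPM in WT, a log2 change of 2.11 (SE 0.28, edgeR adjusted p = 1.12e-08). In KO the same wells held 424.3 and 402.3 CPM, a change of 1.95 (SE 0.28, edgeR adjusted p = 1.19e-07). All 4 plates were above every 0 h sum, and the difference between the changes was -0.16 (SE 0.39), within its error.

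Zfp36 rose early in both genotypes with MDP/LPS (2.31 in WT, 2.13 in KO), Zymosan (2.25 and 2.18) and Poly(I:C) (1.47 and 1.85). It was called in WT and not in KO with R848 (382.4 and 654.7 CPM, log2 change 1.85), CpG (574.0 and 488.1 CPM, 1.91), Pam3Cys (668.0 and 266.7 CPM, 1.72) and FLA (452.4 and 332.7 CPM, 1.41). In KO those ligands left Zfp36 at 123.0 and 96.48 CPM with R848, 146.1 and 105.3 CPM with CpG, 164.6 and 143.0 CPM with Pam3Cys, and 142.2 and 110.2 CPM with FLA. The lowest WT sum among these 4 ligands, 266.7 CPM, was above the highest KO sum, 164.6 CPM. The 4 were picked by their calls in WT and not in KO, so this gap is not a test of genotype.

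The test of the difference between genotypes, the KO change minus the WT change, called 2 of the 12 ligands early for Zfp36, both lower (0.0221% of all gene-ligand pairs were called lower and 0.00158% higher), and no other member. These were CpG at -1.80 (SE 0.39, edgeR adjusted p = 0.0177) and R848 at -1.85 (SE 0.40, edgeR adjusted p = 0.0289). Pam3Cys, at -1.39 (edgeR adjusted p = 0.480), and FLA, at -1.29 (edgeR adjusted p = 0.908), did not pass. Averaged over Pam3Cys, R848 and CpG, the difference was -1.68 (SE 0.32, edgeR adjusted p = 0.00215), in a comparison that called 0.17% of genes lower. Averaged over LPS, MDP/LPS and Zymosan, it was -0.13 (SE 0.31) and not called. Leaving out WT plate 1 or WT plate 2 lost both single-ligand calls and the mean (edgeR adjusted p = 1 and 0.391 for the mean), and leaving out KO plate 2 lost both single-ligand calls but kept the mean (0.0261), while without KO plate 1 all were kept. In WT plate 2 the wells labelled Pam3Cys held 84108, 106245 and 122510 counts at 0, 0.5 and 1 h. Zfp36 read 665.8 CPM at 0 h and 178.8 CPM at 0.5 h there, where plate 1 read 124.7 and 839.9 CPM.

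**Figure D2:**
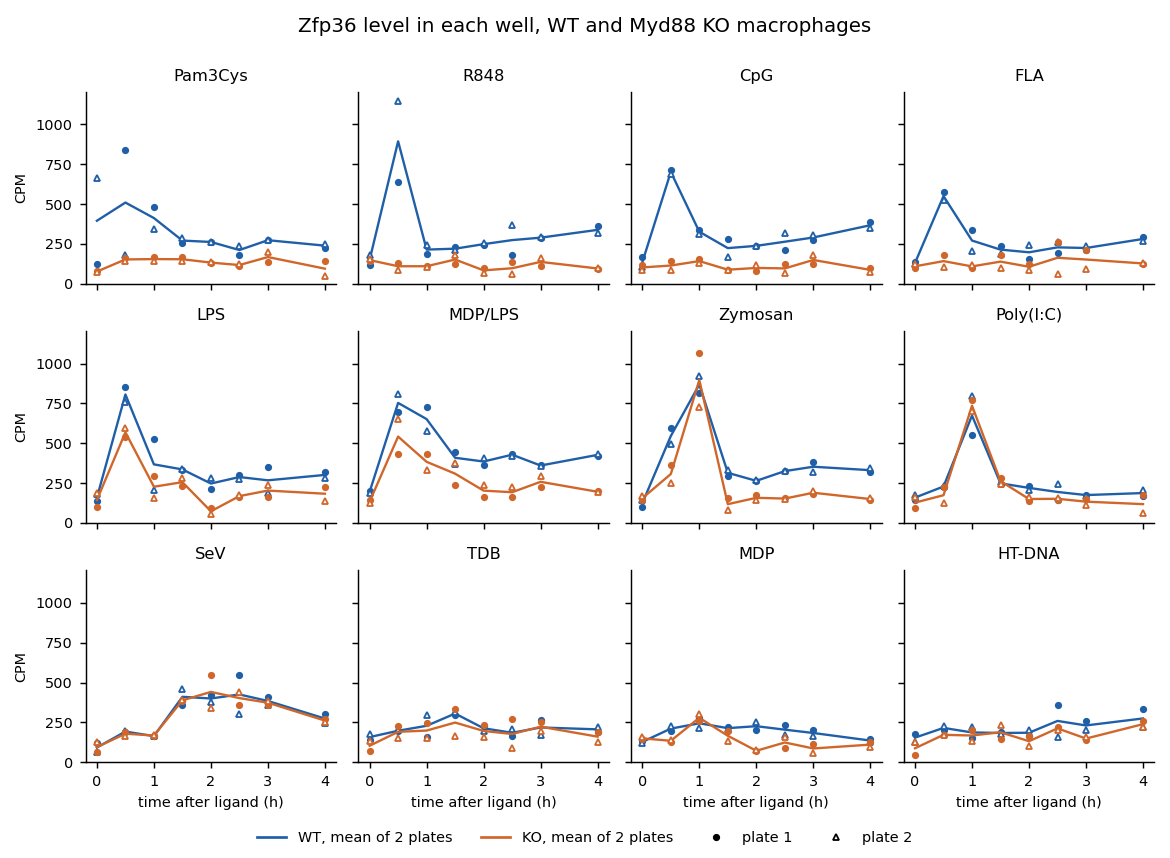
Zfp36 in CPM against time in h, 1 panel per ligand, with 1 point per well (circles for plate 1, triangles for plate 2) and lines through the mean of the 2 plates in WT and KO. WT and KO lines rise together at 0.5 to 1 h with LPS, MDP/LPS, Zymosan and Poly(I:C), the KO lines stay near their 0 h level with CpG and R848, and SeV rises later in both.

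Single wells show how short the Zfp36 peak was. With LPS it was highest at 0.5 h, at 853.0 and 760.3 CPM in WT and 538.7 and 599.1 CPM in KO, and at 2 h it was at 211.5 and 283.7 CPM in WT and 91.56 and 55.12 CPM in KO. Those KO wells at 2 h held only 17 and 9 counts of Zfp36 and were the lowest of their course. The KO mean was 256.2 CPM at 1.5 h, 168.6 CPM at 2.5 h and 203.4 CPM at 3 h, against 144.3 CPM at 0 h. CpG gave 715.9 and 687.8 CPM at 0.5 h in WT, and R848 gave 640.1 and 1148 CPM. Zymosan and Poly(I:C) reached their highest wells at 1 h: 813.8 and 924.3 CPM (WT) and 1064 and 731.1 CPM (KO) for Zymosan, and 551.7 and 796.6 CPM (WT) and 770.9 and 701.5 CPM (KO) for Poly(I:C). SeV was later still, with 550.3 and 300.6 CPM at 2.5 h in WT and 545.2 and 337.4 CPM at 2 h in KO. Wells at 1 time point are single and shallow, so the order of these times carries the error of 1 well per plate.

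In the middle wells Zfp36 was called higher in WT with MDP/LPS (1.56), SeV (1.49), LPS (1.13) and Zymosan (1.08), and in KO with SeV (1.91) and MDP/LPS (1.28). It stayed above its 0 h level late in WT with R848 (1.15), CpG (1.21), LPS (1.26), MDP/LPS (1.76), Zymosan (1.41) and SeV (1.50). In KO it was called late with LPS (0.95), MDP/LPS (1.14) and SeV (1.81). From early to late wells it fell in KO with LPS (-1.01), MDP/LPS (-0.996), Poly(I:C) (-1.46) and Zymosan (-1.48). In WT the early-to-late fall was called with Poly(I:C) alone (-0.98), with 8 ligands lower at an unadjusted p under 0.05, against 5 in KO. The median change over the 12 ligands was -0.66 in WT and -0.16 in KO, and whether the genotypes differ in this fall was not tested. With SeV Zfp36 rose from early to late in both (1.22 in WT, 1.24 in KO). Of all gene-ligand pairs, 0.601% in WT and 0.468% in KO were called lower from early to late, and 1.48% and 1.31% higher. Without WT plate 1 or plate 2, 2 and 5 of the 8 early WT calls and 1 and 3 of the 6 late ones were kept, while all 4 early KO calls were kept without any 1 plate.

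The order of the early WT levels of Zfp36 ran from Zymosan, MDP/LPS and LPS at the top to SeV at the bottom, with 10 of the 11 neighbours in that order overlapping between plates. In the late WT wells MDP/LPS (405.1 and 405.0 CPM) came first. Neighbours overlapped there in 7 of 11 cases.

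Zfp36l1, which binds the same AU-rich elements, was called lower, not higher, in the late WT wells. It stood at 171.6 and 195.4 CPM at 0 h in WT and 113.4 and 133.5 CPM in KO. Early WT wells with MDP/LPS held 406.7 and 424.8 CPM, the only called early increase of this gene (1.29, SE 0.35, edgeR adjusted p = 0.0498), and that call was lost without the filter on low counts, with a plate-wide background subtracted, and without either WT plate. Late WT wells were low: 47.69 and 38.83 CPM with LPS (-1.75, SE 0.38), 47.5 and 49.12 CPM with Zymosan (-1.68, SE 0.37) and 62.95 and 62.5 CPM with MDP/LPS (-1.21, SE 0.36). These 6 sums lie below every 0 h sum of either genotype.

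Zfp36l1 fell from early to late WT wells with LPS (-2.72, SE 0.39), Zymosan (-2.66), MDP/LPS (-2.50), CpG (-1.69), R848 (-1.49) and Pam3Cys (-1.47), where 0.601% of all gene-ligand pairs were called lower and 1.48% higher. In KO no early-to-late change of this gene was called by edgeR and 1 (MDP/LPS) by DESeq2, with 4 ligands lower at an unadjusted p under 0.05 (0.468% of all pairs were called lower and 1.31% higher). Late KO wells with LPS held 103.5 and 104.9 CPM, above both WT plates, and with Zymosan 63.42 and 79.92 CPM. The genotype difference of the late LPS change was 1.74 (SE 0.52), which did not pass (edgeR adjusted p = 0.808). Late WT levels ran from MDP at the top (187.0 and 231.1 CPM) to LPS at the bottom, and 5 of the 11 neighbours in that order did not overlap. Without WT plate 1 or plate 2, none of the 3 late calls and 3 of the 6 early-to-late calls were kept.

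**Figure D3:**
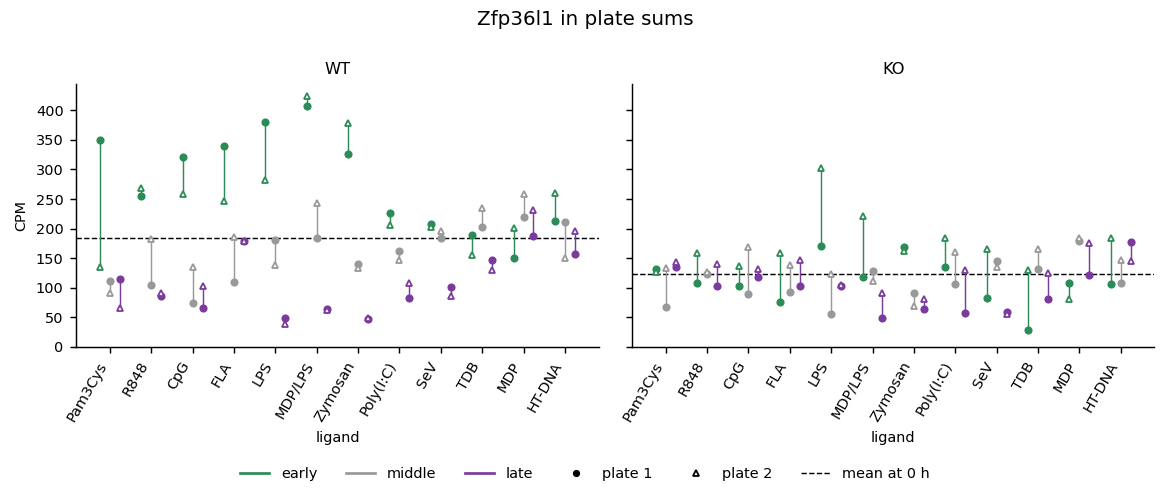
Zfp36l1 in CPM in each plate sum of the early, middle and late wells of each ligand, WT on the left and KO on the right, with a dashed line at the genotype's mean at 0 h. Late WT sums with LPS, Zymosan and MDP/LPS sit at 38.83 to 62.95 CPM, below the dashed lines of both genotypes.

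Zfp36l2 fell with more ligands than its relatives, 8 late in WT against 3 for Zfp36l1. Its 0 h level was 164.4 and 135.4 CPM in WT and 164.7 and 170.1 CPM in KO. No early change was called by edgeR or DESeq2, with 2 WT ligands higher at an unadjusted p under 0.05. In the middle WT wells it fell with Pam3Cys, R848, FLA, LPS, Zymosan and Poly(I:C), by 1.62 to 2.00 on the log2 scale, and LPS gave 39.29 and 26.41 CPM. In the late WT wells it fell with 8 of the 12 ligands. The late levels were 18.41 and 44.23 CPM with LPS (-1.96, SE 0.37), 43.59 and 23.14 CPM with Poly(I:C) (-1.97), 36.67 and 30.96 CPM with Zymosan (-1.89), 42.45 and 36.52 CPM with R848 (-1.78) and 44.77 and 45.73 CPM with SeV (-1.42). Pam3Cys (-1.63), CpG (-1.51) and MDP/LPS (-1.56) completed the 8.

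In the middle KO wells Zfp36l2 fell with Zymosan (56.45 and 28.87 CPM, -1.80) and MDP/LPS (70.19 and 58.11 CPM, -1.26). In KO the late decrease of Zfp36l2 was called with LPS (40.17 and 74.43 CPM, -1.32), MDP/LPS (-1.16), Zymosan (-1.26) and Poly(I:C) (-1.07). The KO wells with R848 held 184.3 and 155.7 CPM, those with CpG 156.2 and 200.0 CPM and those with Pam3Cys 164.7 and 164.8 CPM, all above every WT late sum with these ligands. The difference between the genotypes' late changes was called for R848, at 1.87 (SE 0.49, edgeR adjusted p = 0.0430), the 1 member-ligand pair called late (0.0197% of all pairs were called higher and 0.129% lower), while DESeq2 called R848, CpG and Pam3Cys. The mean over Pam3Cys, R848 and CpG differed by 1.69 (SE 0.39, edgeR adjusted p = 0.00488) late, where 0.322% of genes were called higher, and by 1.46 (SE 0.40, edgeR adjusted p = 0.0659) in the middle wells. For LPS, MDP/LPS and Zymosan the late mean differed by 0.56 (SE 0.40) and was not called. In the middle wells edgeR called 0 of the 72 differences of the members and DESeq2 3 (Zfp36l2 higher with FLA and Pam3Cys, Zc3h12c lower with CpG), with 4 higher and 7 lower at an unadjusted p under 0.05 (0.00158% of all pairs were called higher and 0.0426% lower). The R848 difference kept its size, 1.80 to 1.92, but lost its call without any 1 of the 4 plates, and the late mean lost its call without WT plate 1 (edgeR adjusted p = 0.0742) or WT plate 2 (0.698).

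**Figure D4:**
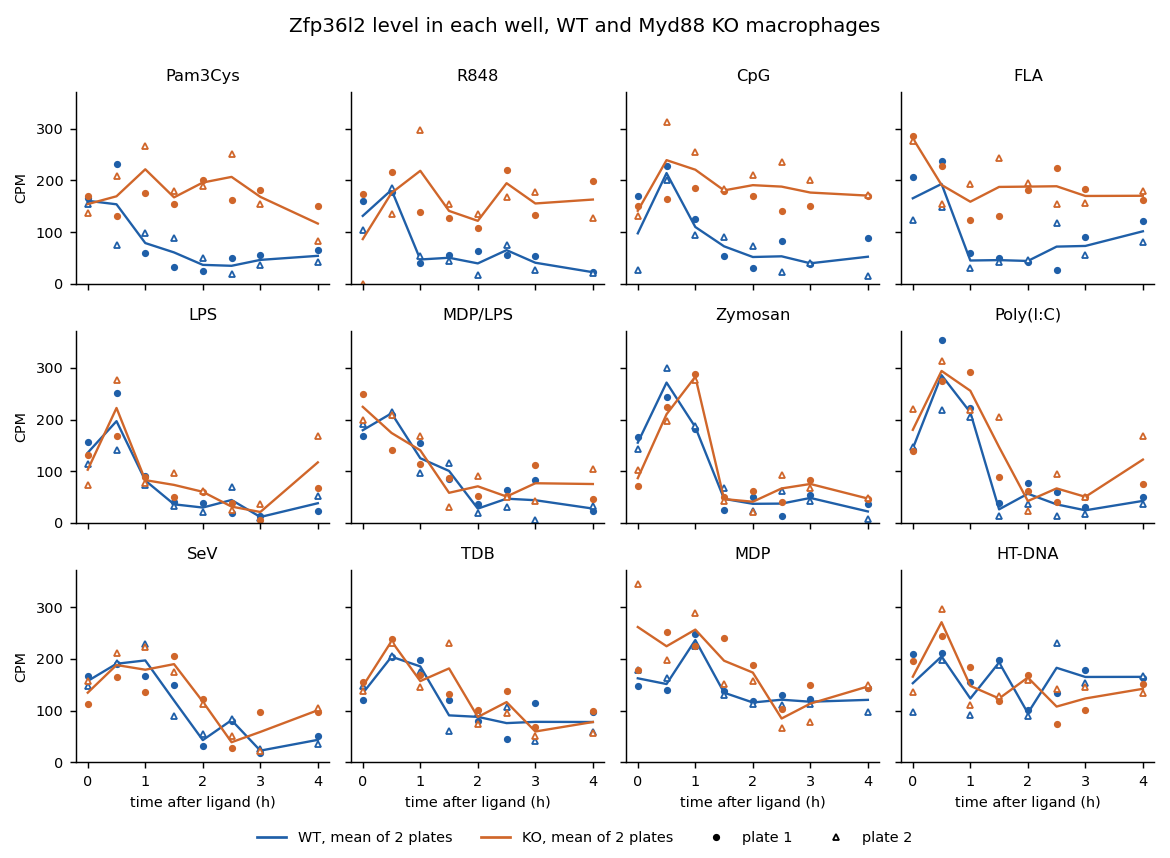
Zfp36l2 in CPM against time in h, 1 panel per ligand, with 1 point per well and lines through the mean of the 2 plates in WT and KO. With R848, CpG and Pam3Cys the WT lines are low from 1.5 h on while the KO lines stay above them (the KO plate 2 well labelled R848 at 0 h held no count of the gene), and with LPS, MDP/LPS, Zymosan and Poly(I:C) the lines of both genotypes drop. From 3 to 4 h the KO mean rose from 21.21 to 117.2 CPM with LPS (66.96 and 167.4 CPM in the 4 h wells). With Poly(I:C) it rose from 50.55 to 122.6 CPM. The WT means rose from 11.54 to 38.19 CPM with LPS and from 24.49 to 42.7 CPM with Poly(I:C). With MDP/LPS and Zymosan the KO mean did not rise (76.84 to 75.32 CPM and 75.42 to 47.2 CPM).

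From early to late wells Zfp36l2 fell with 8 ligands in WT, most with Poly(I:C) (-2.66) and Zymosan (-2.57), and with 5 in KO, most with Zymosan (-1.78) and Poly(I:C) (-1.69). Of all gene-ligand pairs, 0.601% in WT and 0.468% in KO were called lower there. The late WT change was positive for all 12 ligands in Zfp36, called or not, and for 1 of the 12 in Zfp36l2. The ligands share their 0 h sums and plates, so these signs are not independent. Late WT levels of Zfp36l2 were highest with HT-DNA (162.8 and 178.7 CPM) and lowest with LPS, Poly(I:C) and Zymosan, which overlapped one another, and 3 of the 11 neighbours in the order did not overlap. MDP, TDB and HT-DNA gave no called change of Zfp36l2 from 0 h in any class or genotype by edgeR or DESeq2. Late, 10 ligands in WT and 6 in KO were lower at an unadjusted p under 0.05. Single TDB wells read 120.1 and 146.7 CPM at 0 h and 97.52 and 58.04 CPM at 4 h in WT. In KO they read 155.6 and 138.1 CPM at 0 h and 98.88 and 56.65 CPM at 4 h. Without WT plate 1 or plate 2, 2 and 1 of the 8 late WT calls were kept, and of the 4 late KO calls 0 were kept without KO plate 1 and 1 without KO plate 2.

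Zc3h12a had few counts at 0 h, at 13.47 and 10.73 CPM in WT and 4.901 and 6.092 CPM in KO. Early in WT, edgeR called no change of Zc3h12a, but all 12 changes were positive (median 1.62), 6 of them at an unadjusted p under 0.05. These changes share their 0 h sums and plates, so their signs are not independent. In the middle WT wells Zc3h12a rose with CpG (3.16), R848 (3.19), Pam3Cys (3.12), Zymosan (2.88), FLA (2.83), MDP/LPS (2.73) and LPS (2.60), the 7 called ligands. R848 gave 84.07 and 129.2 CPM. Late WT wells stayed high, with 100.7 and 99.99 CPM for R848 (3.18, SE 0.72), 97.16 and 94.07 CPM for Pam3Cys (3.06), 82.83 and 79.83 CPM for LPS (3.06), 62.51 and 113.2 CPM for Zymosan (3.09), 66.27 and 77.11 CPM for MDP/LPS (2.89) and 48.09 and 104.1 CPM for CpG (2.83). Poly(I:C), SeV, MDP, TDB and HT-DNA gave no called change, and their late WT sums lay between 7.445 and 33.09 CPM. FLA lay between, at 41.62 and 61.73 CPM (2.17, edgeR adjusted p = 0.196), overlapping the called ligands. In the order of all 12 ligands 8 of 11 neighbours overlapped.

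In KO no change of Zc3h12a from 0 h was called by edgeR or DESeq2 in any class, with 2 early increases and 1 middle decrease at an unadjusted p under 0.05. Late KO wells with LPS held 6.181 and 3.383 CPM and those with Pam3Cys 10.07 and 8.767 CPM. Every KO sum with the 6 ligands called late in WT was below every WT sum. These ligands were picked by their WT calls, and the KO sums were already lower at 0 h, so this separation is not a test of genotype. Middle KO wells with MDP/LPS held no count in either plate, where 3 counts over the group would have been 3.557 CPM, and the WT wells held 71.52 CPM, at least 20.11-fold more. The genotype difference of the change was not called for any ligand by edgeR or DESeq2, although 4 middle and 6 late ligands had a lower KO change at an unadjusted p under 0.05. Leaving out either WT plate lost all 13 middle and late WT calls of this gene, and leaving out either KO plate lost none of them.

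**Figure D5:**
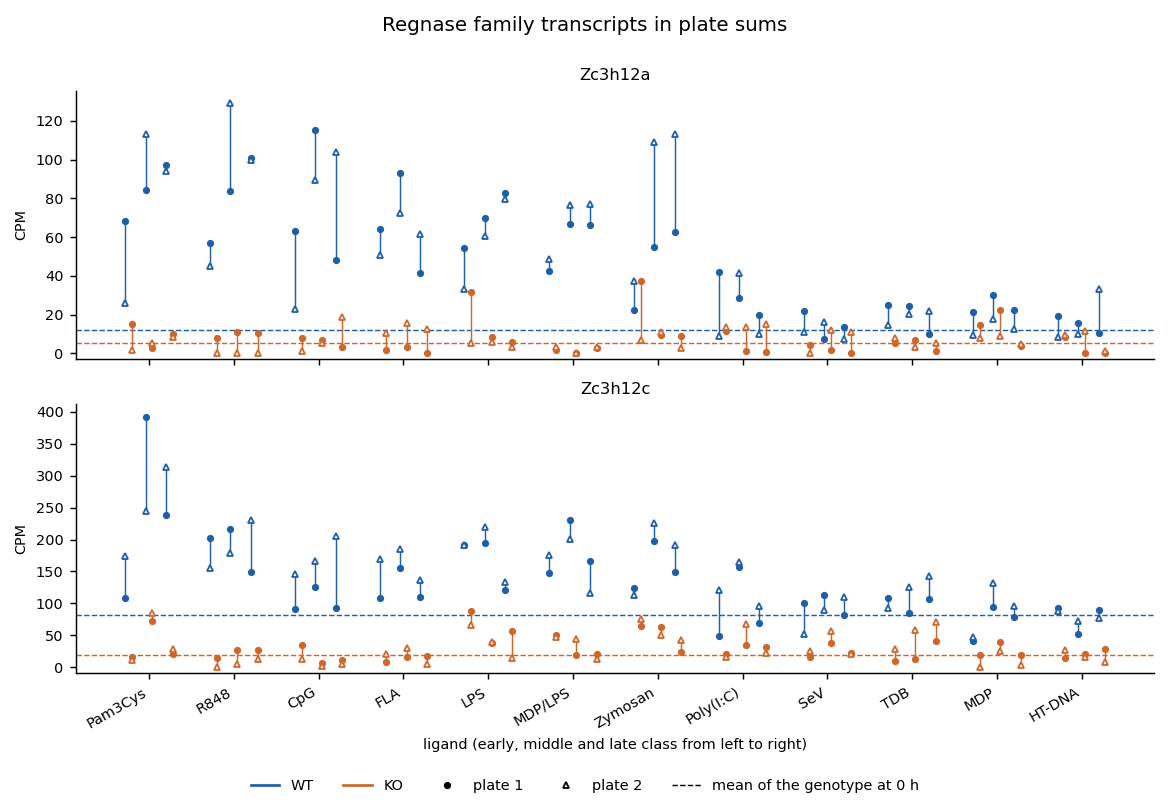
Zc3h12a and Zc3h12c in CPM in each plate sum by ligand, with early, middle and late from left to right, WT and KO in colour and dashed lines at the mean of each genotype at 0 h. Zc3h12a in WT stands at 48.09 to 113.2 CPM late with its 6 called ligands, and most KO sums of both genes lie below the WT sums of the same ligand and class.

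At 0 h every member but Zfp36l2 was lower in both KO plates than in either WT plate, and edgeR called only the difference of Zc3h12c. Zc3h12c stood at 66.72 and 95.97 CPM in WT and 25.14 and 13.96 CPM in KO, a difference of -2.07 (SE 0.45, edgeR adjusted p = 0.00825), where 0.275% of genes were called lower. The call was lost with a plate-wide background subtracted (-1.95, edgeR adjusted p = 0.247), without WT plate 1 (-2.34, edgeR adjusted p = 0.428) and without WT plate 2 (-1.76, edgeR adjusted p = 1). Inflammatory transcripts moved in the same direction in those wells: Tnf was at 254.4 and 269.3 CPM in WT and 53.05 and 54.32 CPM in KO, and Il1b at 484.8 and 604.2 CPM against 37.71 and 35.79 CPM. Their part in the Zc3h12c difference was not tested. The plate-wide background is an upper bound on counts that the wells of a plate could share, which would bear on every change from 0 h, and whether reads were carried between wells was not tested.

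With Pam3Cys, Zc3h12c reached 391.8 and 245.4 CPM in the middle WT wells (2.07, SE 0.45, edgeR adjusted p = 0.00205) and 238.7 and 314.3 CPM late (1.86). LPS (1.53), MDP/LPS (1.58) and Zymosan (1.53) were called in the middle wells only. In KO the early LPS wells held 87.56 and 65.74 CPM, a rise of 2.09 (SE 0.49, edgeR adjusted p = 0.00890) from the lower KO start, and the WT wells held 191.5 and 192.0 CPM (1.35, not called). The middle KO wells with Pam3Cys held 72.1 and 85.76 CPM, a fitted change of 2.03 (edgeR adjusted p = 0.137) that DESeq2 called. Its difference from the WT change was -0.04 (SE 0.75). Late WT levels ran from Pam3Cys at the top to Poly(I:C) at the bottom (68.79 and 95.76 CPM), with 1 of 11 neighbours not overlapping. Without either WT plate all 6 calls of change from 0 h of this gene were lost.

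Rc3h1 gave no called change from 0 h in any ligand, class or genotype by edgeR or DESeq2, with 1 WT and 1 KO ligand lower early and 1 KO ligand lower late at an unadjusted p under 0.05. Early in WT, 0 of the 12 fitted changes were positive (median -0.52), and from early to late 11 of 12 were positive (median 0.71). The 12 ligands share their 0 h sums and plates, so these signs are not independent. Over all wells Rc3h1 stood at 55.38 and 55.02 CPM in the WT plates and at 25.15 and 25.05 CPM in the KO plates. At 0 h it stood at 56.52 and 61.24 CPM in WT and 26.42 and 29.7 CPM in KO, a difference of -1.10 (SE 0.48) that was not called (edgeR adjusted p = 1.0). The genotypes did not overlap and the plates of a genotype lay close together. Late WT sums ran from 33.48 to 90.46 CPM over the ligands, in which the lowest and highest neighbours could not be ordered, since all 11 neighbours overlapped.

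The level of each member was also set side by side between the genotypes at the same ligand and time class, a comparison added after the data were seen. Like the other comparisons, it treats the sums of 1 plate as independent although each genotype had 2 plates. Early, 13 of 72 pairs were lower in KO by edgeR and 22 by DESeq2, and 0 were higher by either, with 1 higher at an unadjusted p under 0.05 (0.647% of all pairs were called lower and 0.0576% higher). The lower pairs were Zc3h12c with 5 ligands, Zfp36 with 4, and Zfp36l1 and Zc3h12a with 2 each. In the middle wells 17 were lower (1.15% of all pairs) and 4 higher (0.203%), and late 22 were lower (1.76%) and 3 higher (0.629%). The late lower pairs were 9 of Zc3h12c, 7 of Zc3h12a, 5 of Zfp36 and 1 of Rc3h1 (LPS, -2.59, SE 0.62). All higher pairs were Zfp36l2: Pam3Cys, R848, CpG and FLA in the middle wells and Pam3Cys, R848 and CpG late. The late count ran from 8 to 26 when each plate was left out in turn, the early one from 6 to 21 and the middle one from 6 to 28, with the fewest without a WT plate.

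Over the 72 stimulated groups of both genotypes, the log2 changes of Zfp36l1 and Zfp36l2 had a Pearson r of 0.69, and those of Zc3h12a and Zc3h12c of 0.53. Zfp36 and Zfp36l2 had an r of 0.01, and Zfp36l2 and Zc3h12c one of -0.46. Groups of a genotype share their 0 h wells and plates, so these values are descriptions. The genes whose changes were most like Zfp36 were Dusp1 (r 0.837), a phosphatase of MAP kinases, Egr1 (0.826) and Ier3 (0.768). For Zfp36l1 they were Jmjd1c (0.763), Fos (0.756) and Nrp1 (0.746), and for Zfp36l2 Sox4 (0.856), Slc26a11 (0.852) and Rasa1 (0.848). Zc3h12a was most like Plagl2 (0.77), Foxp1 (0.756) and Cebpd (0.748), and Zc3h12c most like Nfkbiz (0.723), Gadd45b (0.702) and Prdm1 (0.701). Rc3h1 had the weakest neighbours, Tet2 at 0.577, Cebpd at 0.566 and Inpp5b at 0.539.

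The decay machinery that these proteins recruit was read from 3 lists. In lists of this size a count of 0 or 1 is near the share of all genes called late with LPS. With LPS in late WT wells, where 4.55% of genes were called higher and 1.74% lower with a median log2 change of -0.13, edgeR called 0 of 18 deadenylation genes, 0 of 17 decapping and 5′ decay genes and 0 of 14 exosome genes, with 0, 1 and 1 of them at an unadjusted p under 0.05, and DESeq2 called 0, 1 and 0. Over all 12 ligands in late WT wells, 0 of 216 deadenylation pairs (6 at an unadjusted p under 0.05, and 1 by DESeq2), 2 of 204 decapping pairs (higher) and 1 of 168 exosome pairs (lower) were called, where 2.09% of all gene-ligand pairs were called higher and 0.688% lower. Early, the deadenylation list had 1 call with LPS in each genotype, Btg2, where 0.492% of all genes in WT and 0.502% in KO were called higher. Btg2, an adaptor of the CCR4-NOT complex, then fell from early to late in both. The other calls of these lists with LPS were Btg1 higher late in KO, Dcp2 and Xrn1 higher from early to late in WT and KO respectively, and Lsm4 at a higher middle level in KO. These 4 genes and Btg2 were named after their values were seen.

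Of 15 tested RNA-binding relatives and partner proteins, 3 rose with LPS in late WT wells (median of the list 0.31), where 4.55% of all genes were called higher. N4bp1, an RNase with a domain like that of regnase, went from 50.4 and 67.24 CPM at 0 h to 345.5 and 280.5 CPM (2.73, SE 0.37). Malt1, the protease that cleaves regnase-1 and roquin, went from 35.71 and 40.41 CPM to 180.7 and 140.2 CPM (2.40, SE 0.46). Arid5a, which protects stem-loop transcripts from regnase-1, went from 7.753 and 12.31 CPM to 43.5 and 56.09 CPM (2.62, SE 0.80). N4bp1 (2.49) and Malt1 (2.79) also rose in late KO wells, where 3.26% of all genes were called higher. Rc3h2, the paralog of Rc3h1, and Zc3h12d, a further regnase, were not called by edgeR or DESeq2 with LPS early or late in either genotype, and Zc3h12b was too low to test. Zc3h12d read 1.545 and 1.692 CPM late in KO, against 19.39 and 25.89 CPM at 0 h (edgeR adjusted p = 0.0723), and 14.22 and 25.89 CPM late in WT.

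Of 10 tested kinases, phosphatases and 14-3-3 proteins that act on Zfp36, 1 rose early with LPS in each genotype. Of all genes, 0.492% in WT and 0.502% in KO were called higher there. Late, 2 rose in each (median WT change 0.62), where 4.55% of genes in WT and 3.26% in KO were called higher. These were Dusp1 and Mapkapk2 in WT, and Map2k3, named after its values were seen, and Mapkapk2 in KO. Dusp1 rose early, to 584.7 and 513.1 CPM from 96.71 and 79.87 CPM in WT (2.75, SE 0.37) and to 249.2 and 326.1 CPM from 36.86 and 43.66 CPM in KO (2.94, SE 0.38). Late it stood at 192.4 and 179.1 CPM in WT and at 64.9 and 59.21 CPM in KO, where edgeR did not call it. Mapkapk2, the kinase that phosphorylates Zfp36, rose late in WT (1.69, SE 0.26) and in KO (1.48, SE 0.26).

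The list of AU-rich or stem-loop target mRNAs moved with LPS in both genotypes. In WT 9 of 19 rose early (median 2.07, against -0.03 over all genes, 0.492% of which were called higher). Late, 12 of 19 rose in WT (median 1.95, with 4.55% of all genes called higher). In KO 10 rose early (median 2.14, with 0.502% of all genes called higher) and 5 late (median 1.03, with 3.26%). Tnf, bound by Zfp36, stood at 1271 and 1052 CPM early and 645.9 and 546.9 CPM late in WT, and at 387.3 and 276.1 CPM early and 52.54 and 45.67 CPM late in KO. Ccl3 stood at 1609 and 1382 CPM late in WT and 153.0 and 189.5 CPM in KO, and Il1b at 5351 and 5189 CPM against 182.3 and 225.0 CPM. From early to late, 7 targets fell in KO (Cxcl1, Cxcl2, Ier3, Il10, Il1b, Nfkbiz and Tnf), where 0.937% of genes did, and 0 rose by edgeR or DESeq2, with 1 higher at an unadjusted p under 0.05. In WT 2 fell (Cxcl2 and Plk2), where 1.32% of genes did, and 5 rose (Ccl3, Ccl4, Il12b, Il1b and Il6), where 3.02% did. These genes were named after their values were seen, and whether the genotypes differ from early to late was not tested.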

How the data were processed

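Macrophage wells were profiled by 3′ digital gene expression (a modified SCRB-Seq), per the labels' protocols. BWA and mm10 are named in the submitters' processing notes, with no version. The deposited values are whole-number counts per gene and well, made by the authors, and the sources used here give neither the use of molecular identifiers nor of strand, so antisense or overlapping transcripts were not told apart. The labels placed all 384 wells in a genotype, plate, ligand and time, and none was left out of the main analysis. No 2 wells held identical values, 7381 genes had no count in any well, and 0 columns belonged to other samples. Plates held 37323548 (WT 1), 31280223 (WT 2), 32320373 (KO 1) and 29737092 (KO 2) counts, of which Rn45s took 8.496%.

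Wells were added into 148 plate sums in 74 groups of 2 plates. These were fitted together with edgeR 4.0.16 in R 4.3.3: filterByExpr with a minimum count of 10, TMM scaling and the robust quasi-likelihood F test, with Benjamini-Hochberg adjustment over 10562 genes in each comparison and a threshold of 0.05. The SE is the log2 change divided by the square root of F. Each member was compared with 0 h of its own genotype, between early and late wells, and between genotypes as KO minus WT, both in the change and at 0 h. Where a group held no count, 3 counts over the group gave the bound. On data simulated for all 10562 genes the fit recovered 7% of 2-fold and 37% of 4-fold changes for late LPS in WT, with 2 unchanged genes called, and 1% and 9% of such differences between genotypes, so a pair that was not called may still differ. UTR and promoter motifs were matched by letters. Some marker lists are not reported here.

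Named were the 6 members in every comparison, a few partner genes wherever measured, up to 4 called genes of each list with the smallest p for late LPS in WT, and for each member the 3 genes with the highest Pearson r of the log2 change over 72 groups. The members and lists were chosen with earlier results of these data known. Alternatives were other size factors, no filter, DESeq2 1.42.0 in place of edgeR, a plate term, each plate left out in turn, single wells in place of sums, wells under 150000 counts left out, Rn45s left out, and a plate-wide background subtracted.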

Additional observations from a re-analysis of the deposited data

Results flagged for a closer look

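The genotype difference of the change from 0 h itself passed the edgeR test for 5 values of the members, each the KO change minus the WT change on the log2 scale. For Zfp36 in the early wells these were -1.80 with CpG, -1.85 with R848 and -1.68 for the mean of Pam3Cys, R848 and CpG. For Zfp36l2 in the late wells they were 1.87 with R848 and 1.69 for the same mean. The R848 wells of KO plate 2 were the shallowest of that plate, at 102253 counts on average, and when wells under 150000 counts were left out the R848 differences were -1.79 for Zfp36 (edgeR adjusted p = 0.0883) and 1.93 for Zfp36l2 (edgeR adjusted p = 0.059). Their part in the called values was not tested further.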

How the results depend on the processing

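No value of a member reversed its direction among 369 member results and the alternatives run. DESeq2 called 9 middle KO changes in place of 4, 3 middle and 3 late genotype differences in place of 0 and 1, and 22 early level differences in place of 13, and it gave an adjusted p for 349 of the 369. Other size factors left 1 early genotype difference in place of 2 (the R848 difference of Zfp36 was -1.73, edgeR adjusted p = 0.0792). Without the filter on low counts, calls numbered 4 in place of 7 for late KO wells, 6 in place of 10 for late against early KO wells, 1 in place of 0 for the middle genotype difference, 0 in place of 1 for the late one and 21 in place of 13 for the early level. With a plate-wide background subtracted as an upper bound on reads carried between wells, at 5.643% to 16.72% of each well's counts, late KO calls were 4, late against early KO calls 5, the late genotype difference 0, the early level 8 and the 0 h difference 0. Leaving out the 17 shallow wells gave 0 late genotype differences. Treating wells as samples, which share a plate, gave 17 early WT calls in place of 9, 8 early, 8 middle and 13 late KO calls in place of 5, 4 and 7, 8 late genotype differences in place of 1, 5 members at 0 h in place of 1, and 64 of 162 means over ligand sets in place of 34.

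Leaving out each plate in turn gave 2 to 19 early, 0 to 26 middle and 3 to 34 late WT calls, 6 to 22 late against early WT calls, 4 to 6 early, 2 to 7 middle and 4 late KO calls, and 5 late against early KO calls. It gave 0 to 2, 0 to 1 and 0 to 1 early, middle and late genotype differences, 0 to 1 at 0 h, 9 to 46 means over ligand sets, and 6 to 21, 6 to 28 and 8 to 26 level differences. The fewest WT calls came without a WT plate, when the lone WT sums are assumed to vary like the KO sums. With a plate term within each genotype (the replicate block), no count moved by over 1.5 times (38 in place of 34 means over ligand sets, for example). The level differences were not refitted with it, and of the 186 single results compared 1 gained a call and 0 lost one, the gain being the middle Zfp36l2 difference over Pam3Cys, R848 and CpG (1.45, edgeR adjusted p = 0.0486). The WT and KO plates share only a number. Within a genotype the plate's deviations had a median correlation between groups of 0.017 (WT) and 0.0259 (KO), over 666 pairs of groups, so the plates were not treated as paired. Sums held as few as 198344 counts, and recovery on simulated data was low for genotype differences over all genes.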
